A study of Mus musculus with 8 samples.

Results

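The mitochondrial protein import machinery was followed in the cardiac ventricles of male C57BL/6 mice 14 days after injection of LLC1 cells or PBS. Its members were chosen by name and not by their values. They were the protein-coding genes of the deposited count table whose symbols begin with Timm or Tomm and a number, together with Timmdc1, Pam16, Grpel1, Grpel2, Samm50, Mtx1, Mtx2, Mtx3, Chchd4, Gfer, Pmpca and Pmpcb. This rule found 36 of the 43346 genes in the table. Of these, 34 had enough counts to be tested. Tomm20l, with 1 to 7 counts per mouse, and Timm8a2, with 0 or 1, did not, and a Timm29 entry was not found by that symbol.

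LLC1 is a mouse lung carcinoma cell line. Each of 4 mice received 1000000 LLC1 cells at 7 weeks of age (mice LLC1 1-2, 1-3, 1-5 and 2-2), and each of 4 mice received the PBS vehicle at the same age (mice PBS 1-1, 1-3, 2-1 and 2-5). All 8 carried the same strain background, with no engineered allele or other agent named in the labels. The question was how ventricular mRNA levels differ between tumor-bearing and control males. Values for single mice are given below in the order of the codes above, as CPM, read counts brought to a common library total of 1000000 with edgeR's trimmed mean of M-values (TMM) factors.

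Nearly all mitochondrial proteins are encoded in the nucleus, made in the cytosol and carried into the organelle as unfolded precursors. The TOM complex of the outer membrane is their common gate, after which the TIM23 channel and its ATP-driven motor take precursors with a targeting sequence into the matrix, the TIM22 complex inserts carrier proteins into the inner membrane, the SAM complex folds barrel proteins into the outer membrane, and the MIA pathway traps small cysteine-rich proteins in the intermembrane space. Heart muscle is rich in mitochondria and depends on this traffic to renew its respiratory chain.

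Library totals ranged from 15342214 to 19747596 counts in LLC1 mice and from 12480706 to 16192158 in PBS mice. The first principal component of all tested genes (31.5% of the variance) separated the groups. The second (25.2%) set PBS 1-1 apart, at 35.3 against -23.3 to -10.8 for the other PBS mice, so member values that leaving out this mouse moved by over 1.5 times are also given without it. Of 16111 genes tested, 663 were higher and 743 lower in LLC1 mice at a false discovery rate (FDR) under 0.05, which became 225 and 793 with scaling to total counts. Heart muscle markers were high in every mouse, 7 cardiomyocyte genes summing to 83600 to 86400 CPM in PBS mice and 92500 to 99300 CPM in LLC1 mice. Of genes that differ between chambers, the ventricular light chain Myl2 was at 6430 to 8640 CPM, the atrial light chain Myl7 at 0.331 to 2.04 CPM and atrial Sln at 0 to 0.353 CPM. In bulk tissue, fewer cells of a type and less RNA per cell cannot be told apart. The labels do not say whether the mice of a group were housed or processed separately, and p-values measure the spread between these mice.

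The import machinery differed little between the groups. By edgeR's quasi-likelihood test with Benjamini-Hochberg adjustment over all tested genes, 2 of the 34 members rose in LLC1 mice (5.88%, beside 4.12% of all tested genes) and 0 fell (beside 4.61% of all tested genes). The genes that rose were Timm17b, a subunit of the TIM23 channel, and Tomm40, the pore of the outer membrane gate. At an unadjusted p under 0.05, 6 members were higher (17.6%, beside 12.4% of all tested genes) and 1 was lower (2.94%, beside 13.0%), and DESeq2 and limma-voom also called 0 members lower. The median log2 fold change of the members was 0.08, against -0.01 for all tested genes. Before rounding, 25 of the 34 had a value above 0, beside 7724 of all 16111 tested genes. The members spanned fold changes of 0.825 (Mtx3) to 1.29 (Timm17b), and the 95% interval of every one of the 34 lay within a 1.5-fold change in either direction, with bounds from 0.712-fold to 1.48-fold.

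**Figure D1:**
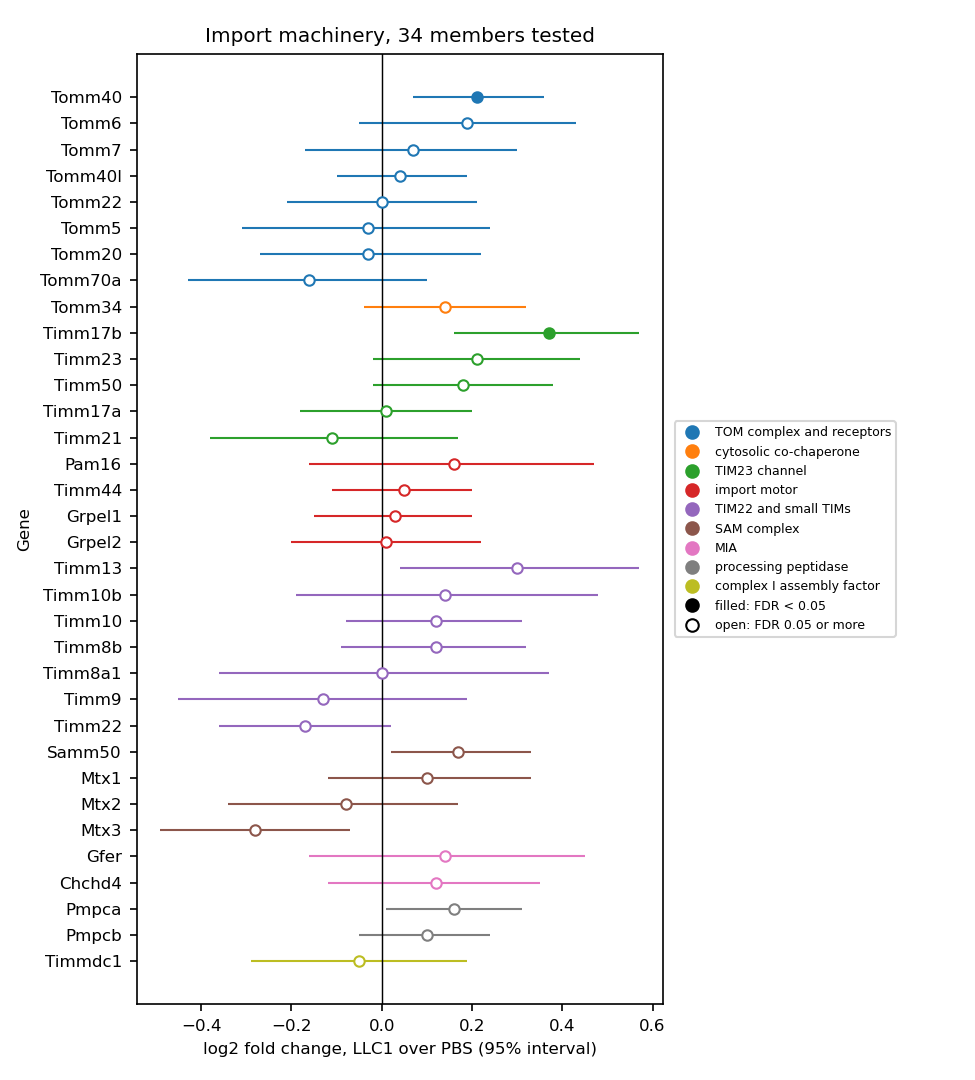
Log2 fold change of LLC1 over PBS mice (horizontal axis) for the 34 members tested, grouped by role, with 95% intervals from the edgeR standard error and 6 residual degrees of freedom, n = 4 mice per group. Filled circles mark Timm17b (0.37) and Tomm40 (0.21), the members with an FDR under 0.05.

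The sequences before the start sites of 5 members are shown because the results below turn on these genes: Timm17b and Tomm40 rose, Timm17a is the paralog of Timm17b that did not pass the test, Timm23 forms the channel with both, and Mtx3 had the lowest fold change. They are RefSeq windows of build GRCm38.p6, 250 bases each, at chrX:7899086-7899335 (plus strand), chr1:135313738-135313987 (minus strand), chr7:19715430-19715679 (minus strand), chr14:32201892-32202141 (minus strand) and chr13:92844518-92844767 (plus strand), written 5′ to 3′ in the direction of the gene. Capitals mark CCAAT (or ATTGG on the other strand) in the first 3, ACTTCCGG in Timm23, and CACGTG and ACTTCCGG in Mtx3.
Timm17b: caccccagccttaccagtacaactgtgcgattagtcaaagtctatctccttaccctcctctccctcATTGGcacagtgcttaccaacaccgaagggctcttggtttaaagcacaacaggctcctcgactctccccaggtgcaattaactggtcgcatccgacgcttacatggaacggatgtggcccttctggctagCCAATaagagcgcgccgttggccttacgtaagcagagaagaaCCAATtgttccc
Timm17a: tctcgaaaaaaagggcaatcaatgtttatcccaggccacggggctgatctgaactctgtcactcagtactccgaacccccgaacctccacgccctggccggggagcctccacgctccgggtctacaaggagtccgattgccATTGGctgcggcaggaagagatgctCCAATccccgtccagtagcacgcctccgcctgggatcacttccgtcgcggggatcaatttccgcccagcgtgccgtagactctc
Tomm40: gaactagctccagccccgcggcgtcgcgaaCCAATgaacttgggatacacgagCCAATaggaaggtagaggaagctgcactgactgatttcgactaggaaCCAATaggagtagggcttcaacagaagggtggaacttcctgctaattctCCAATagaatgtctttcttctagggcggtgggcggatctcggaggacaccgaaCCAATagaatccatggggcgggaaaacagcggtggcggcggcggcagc
Timm23: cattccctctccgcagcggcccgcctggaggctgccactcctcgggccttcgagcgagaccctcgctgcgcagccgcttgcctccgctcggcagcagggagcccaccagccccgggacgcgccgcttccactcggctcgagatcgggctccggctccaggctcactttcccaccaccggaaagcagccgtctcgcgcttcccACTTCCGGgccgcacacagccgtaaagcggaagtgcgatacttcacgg
Mtx3: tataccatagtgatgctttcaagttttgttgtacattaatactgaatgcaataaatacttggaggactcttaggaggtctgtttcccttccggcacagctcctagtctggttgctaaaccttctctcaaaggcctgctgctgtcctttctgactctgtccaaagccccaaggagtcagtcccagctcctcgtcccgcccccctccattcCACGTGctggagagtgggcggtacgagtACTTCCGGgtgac

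The Tomm40 window held 5 CCAAT letters, the Timm17b window 3 and the Timm17a window 2. RefSeq promoter windows, from 250 bases before to 50 after the start, were matched for 32 of the 36 members and not for Tomm40l, Tomm7, Grpel2 or Timm21. On either strand, CCGGAAGT, the letters bound by ETS-family factors such as GABPA, occurred in 9 of the 32 (28.1%) and in 4.31% of all 27025 genes with such windows (3.89% of their 32851 windows). These members were Mtx2, Mtx3, Pmpcb, Timm10, Timm10b, Timm23, Timm8a2, Timmdc1 and Tomm70a. The E-box CACGTG occurred in 6 members (18.8%, against 8.09% of all genes), the YY1 core AAGATGGC in 3 (9.38%, against 3.19%), the estrogen-related receptor letters AAGGTCA in 3 (9.38%, against 5.38%) and the NRF1 core CGCATGCG in 1, Timm13 (3.12%, against 2.07%). CCAAT, searched after the windows had been seen, occurred in 9 members (28.1%) and in 41.1% of all genes. A match is a run of letters and not a shown binding site, and no match says only that these letters are not in this window.

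Within the TIM23 channel, the inner membrane pore for precursors bound for the matrix, 1 of 5 members rose (20.0%, a single gene, beside 4.12% of all tested genes). Timm17b (chrX:7899357-7908351 in mm10) had 28.3, 26.5, 27.8 and 27.8 CPM in LLC1 mice and 18.1, 22.0, 23.0 and 22.3 CPM in PBS mice. The groups did not overlap, and PBS 1-1 was the lowest mouse. The means were 27.6 ± 0.755 and 21.3 ± 2.20 CPM (SD, n = 4), a 1.29-fold difference (log2 0.37, SE 0.08, edgeR FDR 0.0204). An exact two-sided permutation test gave p = 0.0286, the smallest that 4 against 4 mice allow. Timm17b was also called without PBS 1-1, but not under total count scaling (edgeR FDR 0.0999). The call was also lost when LLC1 1-2, LLC1 1-5, LLC1 2-2 or PBS 1-3 was left out, with log2 fold changes of 0.36 to 0.37.

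Timm17a (chr1:135295213-135313778) encodes the other form of the same subunit and was the more abundant. It had 128, 121, 126 and 111 CPM in LLC1 mice and 137, 117, 119 and 110 CPM in PBS mice, so that the groups overlapped throughout. The means were 122 ± 7.76 and 121 ± 11.4 CPM (SD, n = 4), with a log2 fold change of 0.01 (SE 0.08, edgeR FDR 0.946) and a 95% interval of 0.884-fold to 1.15-fold. Timm23, the channel protein itself, had a log2 fold change of 0.21 (edgeR FDR 0.176), and Timm50, its receptor, one of 0.18 (edgeR FDR 0.201). Timm23 passed the test when PBS 1-1 was left out (log2 0.29). Timm21, which joins the channel to the TOM complex and the respiratory chain, was at -0.11 on the log2 scale. Timm23 has a near-identical copy, Gm10273 (99.9% over 1121 bases, at most 26 counts in a mouse), and its reads may be split with it.

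The ratio of Timm17a to Timm17b counts, which does not depend on library scaling, was compared within each mouse. On the log2 scale it was 2.18, 2.19, 2.18 and 2.00 in LLC1 mice and 2.92, 2.41, 2.36 and 2.31 in PBS mice. Every LLC1 mouse lay below every PBS mouse, and PBS 1-1 stood highest. The difference was -0.36 (exact two-sided permutation p = 0.0286, adjusted p = 0.137 over 12 pairs) and did not pass the adjustment. Without PBS 1-1 it was -0.22. Per kb of gene length, Timm17a stood at 15.3 ± 1.45 and Timm17b at 8.35 ± 0.861 CPM per kb in PBS mice, and at 15.4 ± 0.983 and 10.8 ± 0.295 in LLC1 mice (SD, n = 4).

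**Figure D2:**
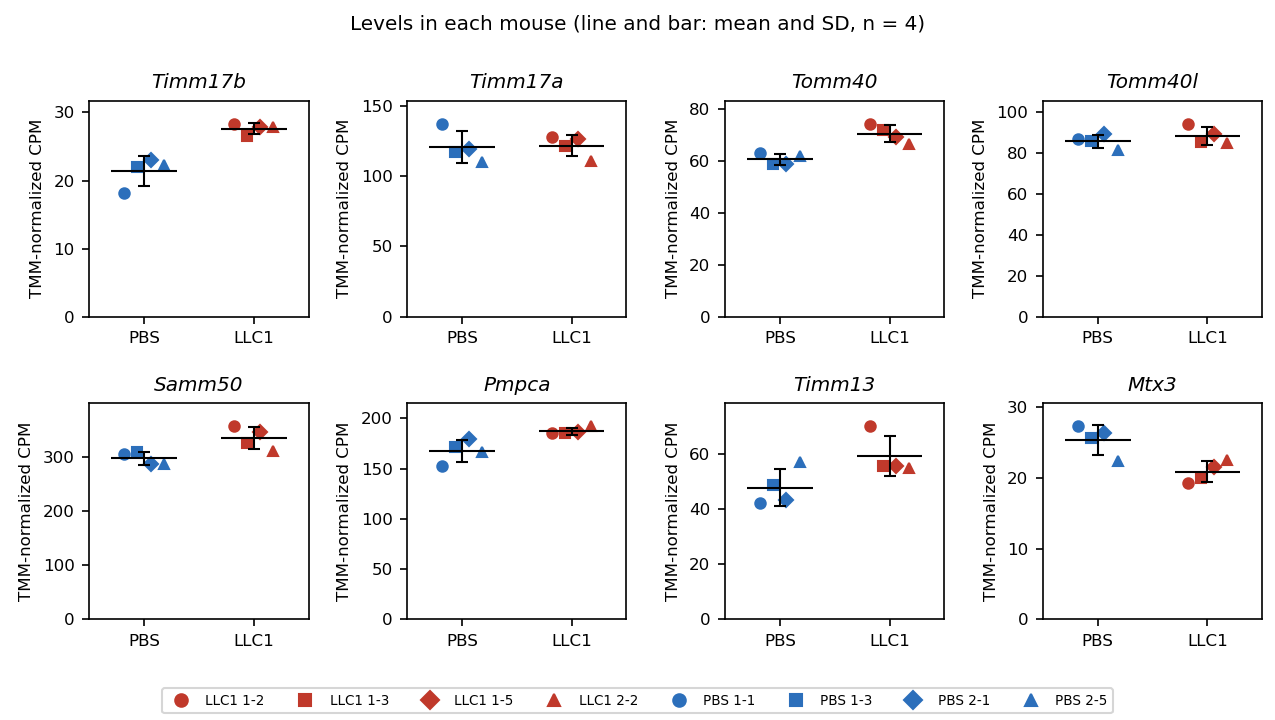
TMM-normalized CPM (vertical axes, from 0) of 8 members in each of the 4 PBS (blue) and 4 LLC1 (red) mice, with the group mean and SD in black. Timm17b, Tomm40, Samm50 and Pmpca did not overlap between the groups, while Timm17a, Tomm40l, Timm13 and Mtx3 did.

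In the TOM complex, 1 of 8 tested members rose (12.5%, a single gene, beside 4.12% of all tested genes) and the median log2 fold change was 0.02, against -0.01 for all tested genes. Tomm40 (chr7:19701313-19715438), the barrel through which precursors cross the outer membrane, had 74.1, 71.6, 69.1 and 66.4 CPM in LLC1 mice and 62.9, 58.7, 58.9 and 61.9 CPM in PBS mice. The groups did not overlap, LLC1 1-2 being the highest mouse. The means were 70.3 ± 3.31 and 60.6 ± 2.14 CPM (SD, n = 4), 1.16-fold apart (log2 0.21, SE 0.06, edgeR FDR 0.0492, exact two-sided permutation p = 0.0286). This FDR lay just under the threshold. Tomm40 was called in 3 of 9 other settings of the test, and leaving out any 1 mouse other than PBS 1-1 ended the call, with log2 fold changes of 0.19 to 0.24.

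Tomm40l (chr1:171216011-171222514), a paralog of Tomm40, had 94.1, 85.3, 89.0 and 84.8 CPM in LLC1 mice and 86.6, 85.7, 89.0 and 81.3 CPM in PBS mice. The groups overlapped, and its log2 fold change was 0.04 (SE 0.06, edgeR FDR 0.690). The log2 ratio of Tomm40 to Tomm40l was -0.34, -0.25, -0.36 and -0.35 in LLC1 mice and -0.46, -0.55, -0.60 and -0.39 in PBS mice. All LLC1 mice lay above all PBS mice, by 0.17 on average (exact two-sided permutation p = 0.0286, adjusted p = 0.137 over 12 pairs). Of the exon bases of Tomm40l, 64.3% also belong to Nr1i3 on the other strand, and the libraries do not keep strand, so its count cannot be told apart from reads of Nr1i3.

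The receptors and small subunits of the TOM complex did not pass the test. Tomm70a, the receptor for carrier precursors delivered by chaperones, was at -0.16 on the log2 scale, with PBS mice spread from 67.9 to 106 CPM. With a mouse left out it ranged from -0.27 (without PBS 2-5, edgeR FDR 0.0502) to -0.06 (without PBS 1-1). Tomm20 and Tomm22, receptors for precursors with a targeting sequence, had log2 fold changes of -0.03 and 0.00. Among the small subunits that steady the pore, Tomm6 was at 0.19, Tomm7 at 0.07 and Tomm5 at -0.03. Tomm5 (chr4:45105208-45108114), among the most abundant members per length, had 73.6, 62.0, 70.1 and 58.1 CPM in LLC1 mice and 81.3, 71.0, 62.3 and 56.0 CPM in PBS mice. The PBS range enclosed the LLC1 range, with means of 66.0 ± 7.17 and 67.7 ± 11.0 CPM (SD, n = 4, edgeR FDR 0.884). Tomm34, a cytosolic co-chaperone of precursors, did not overlap between groups, at 24.9 ± 1.66 CPM in LLC1 and 22.7 ± 0.477 CPM in PBS mice (SD, n = 4), and missed the threshold (log2 0.14, edgeR FDR 0.265).

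The import motor pulls precursors through the TIM23 channel with the matrix chaperone mtHsp70. None of its 4 members passed edgeR's test (beside 4.12% higher and 4.61% lower among all tested genes), and 0 had an unadjusted p under 0.05 (beside 12.4% and 13.0%), shares at which 4 genes would give few calls or none. Timm44, which anchors the chaperone at the channel, was at 0.05 on the log2 scale, and Pam16, which restrains the J-protein of the motor, at 0.16. Grpel1 and Grpel2, the nucleotide exchange factors, were at 0.03 and 0.01. Pam16 spread from 23.0 CPM (PBS 2-1) to 35.4 CPM (PBS 1-1) among PBS mice, and without PBS 1-1 it passed the test (log2 0.32).

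Of the 7 tested genes of the TIM22 route, which serves the metabolite carriers of the inner membrane, none passed the test (beside 4.12% higher and 4.61% lower among all tested genes), and 1 (Timm13) had an unadjusted p under 0.05, near the 12.4% of all tested genes that were higher at that level. Timm22, the insertion channel, was at -0.17 on the log2 scale (edgeR FDR 0.197). The small TIM chaperones escort hydrophobic precursors across the intermembrane space as rings. Timm13 had a log2 fold change of 0.30 (SE 0.11, edgeR FDR 0.100) and passed the test when PBS 2-5 was left out (log2 0.40, edgeR FDR 0.0289). Timm10 had a log2 fold change of 0.12 and Timm9, the ring partner of Timm10, one of -0.13.

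Timm8b (chr9:50603901-50605320), which belongs to the family that pairs with Timm13, was the second most abundant member per length. It had 65.2, 54.6, 55.4 and 52.4 CPM in LLC1 mice and 57.2, 47.7, 50.3 and 54.5 CPM in PBS mice. The groups overlapped, at 56.9 ± 5.68 and 52.4 ± 4.23 CPM (SD, n = 4, log2 0.12, SE 0.08, edgeR FDR 0.409). Its paralog Timm8a1 (chrX:134537256-134541865), whose human counterpart is mutated in deafness-dystonia syndrome, was among the least abundant. Timm8a1 had 7.14, 6.65, 6.95 and 5.89 CPM in LLC1 mice and 8.67, 6.73, 5.24 and 6.20 CPM in PBS mice, and PBS 1-1 and 2-1 marked both ends of its range (log2 0.00, SE 0.15, edgeR FDR 0.998). Timm10b (chr7:105640056-105655748), the small TIM docked on Timm22, had 22.0, 18.9, 22.3 and 19.6 CPM in LLC1 mice and 25.4, 17.5, 15.3 and 17.4 CPM in PBS mice. All LLC1 mice lay above the other 3 PBS mice but below PBS 1-1, with a log2 fold change of 0.14 (SE 0.14, edgeR FDR 0.556) over all 8 mice and 0.31, past the threshold, without PBS 1-1.

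Per kb of gene length, the SAM complex held both the most and the least abundant members tested, Samm50 and Mtx3. Samm50 (chr15:84192233-84214303), its barrel and catalyst, had 356, 326, 345 and 311 CPM in LLC1 mice and 305, 309, 287 and 286 CPM in PBS mice. The groups did not overlap, LLC1 2-2 and PBS 1-3 lying next to each other, and the means were 334 ± 19.8 and 297 ± 11.9 CPM (SD, n = 4). Its log2 fold change of 0.17 (SE 0.06) missed the threshold (edgeR FDR 0.113). Mtx3 (chr13:92844787-92858230), a metaxin, had 19.3, 20.0, 21.6 and 22.6 CPM in LLC1 mice and 27.3, 25.7, 26.3 and 22.4 CPM in PBS mice. It lay lower in LLC1 mice apart from PBS 2-5, which lay among them, with means of 20.9 ± 1.51 and 25.4 ± 2.13 CPM (SD, n = 4, log2 -0.28, SE 0.09, edgeR FDR 0.0658). Without PBS 2-5, Mtx3 passed the test (log2 -0.34). Mtx1 and Mtx2, the other metaxins, were at 0.10 and -0.08 on the log2 scale. With a mouse left out, Mtx1 ranged from 0.03 (without PBS 2-1) to 0.17 (without PBS 2-5).

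The MIA pathway and the processing peptidase each have a pair of members. Chchd4, the oxidoreductase that traps cysteine-rich precursors, and Gfer, the sulfhydryl oxidase that recharges it, had log2 fold changes of 0.12 and 0.14 (edgeR FDR 0.495 and 0.512). With a mouse left out, Chchd4 ranged from 0.03 (without PBS 2-1) to 0.18 (without PBS 1-1), and Gfer from 0.06 to 0.27 without the same mice. A Gfer transcript is 99.8% identical to one of Dst over 573 bases, and Dst had 14735 to 20289 counts per mouse, so that reads of the shared stretch cannot be told apart. Pmpcb, the catalytic subunit of the peptidase that removes targeting sequences, was at 0.10 (edgeR FDR 0.351). Pmpca, its partner subunit, did not overlap between groups, at 187 ± 3.15 CPM in LLC1 and 167 ± 10.8 CPM in PBS mice (SD, n = 4), with an edgeR FDR of 0.125 (log2 0.16). Timmdc1, a relative of the Tim17 family that assembles complex I, was at -0.05 on the log2 scale. In all, 5 members did not overlap with LLC1 higher (Timm17b, Tomm40, Samm50, Pmpca and Tomm34), 14.7% of the 34 beside 8.89% of all tested genes, and 0 did so with LLC1 lower, beside 8.27%.

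**Figure D3:**
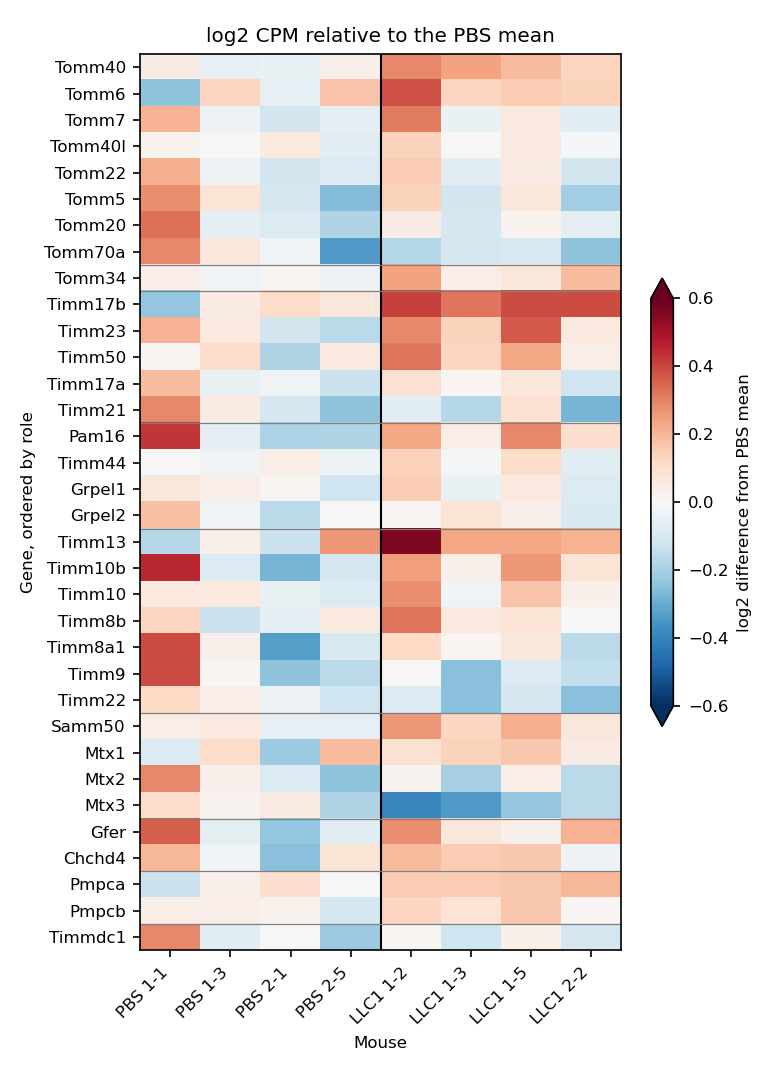
Log2 difference of each mouse (columns) from the PBS mean for the 34 tested members (rows, by role), red above and blue below. PBS 1-1 was the highest of the 4 PBS mice in 23 members and the lowest in 4 (Pmpca, Timm13, Timm17b and Tomm6).

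PBS 1-1 had the highest level of all 8 mice in 17 of the 34 members and LLC1 1-2 in 13. The median log2 difference of the members from their PBS means was 0.15, 0.02, 0.08 and -0.02 in the LLC1 mice, and 0.15, 0.03, -0.07 and -0.08 in the PBS mice. These medians overlapped between the groups. All members together took 0.212% to 0.231% of the counts of a mouse. The median coefficient of variation of a member was 7.15% over the LLC1 mice, 10.6% over the PBS mice and 6.18% over the PBS mice without PBS 1-1. Without PBS 1-1, 5 of the 34 members rose (Pam16, Timm10b, Timm17b, Timm23 and Tomm40), 14.7% beside 5.56% of the 16319 genes tested in that fit. On the log2 scale, Mtx3 and Timm22 then stood lowest, at -0.24 and -0.13. The other members that had been below 0 stood at -0.06 (Tomm70a), -0.01 (Timm21), 0.01 (Timm9), 0.02 (Mtx2), 0.05 (Timmdc1), 0.06 (Tomm5) and 0.09 (Tomm20). Tomm22 and Timm8a1, which had been at 0.00 when rounded, stood at 0.08 and 0.14. Of those that had been above 0 when rounded, Grpel1 then stood at 0.05, Grpel2 at 0.07, Timm17a at 0.08, Tomm6 at 0.12, Tomm7 at 0.14, Chchd4 at 0.18 and Gfer at 0.27. The rest that were not called then stood from 0.05 (Timm44 and Tomm40l) to 0.25 (Timm13). None of these members passed edgeR's test without PBS 1-1.

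Per kb of listed gene length, the members spanned a wide range of levels. Samm50 stood highest, at 177 ± 7.12 CPM per kb in PBS mice and 200 ± 11.8 in LLC1 mice (SD, n = 4). Timm8b followed at 99.5 ± 8.02 and 108 ± 10.8, and Tomm5 at 77.9 ± 12.7 and 76.0 ± 8.26. The lowest of the tested members were Timm10b at 4.62 ± 1.09 and 5.06 ± 0.418, Timm8a1 at 4.72 ± 1.02 and 4.68 ± 0.389, and Mtx3 at 4.05 ± 0.340 and 3.33 ± 0.240 CPM per kb. Samm50 lay above Timm8b beyond their spread in each group, whereas Timm10b and Timm8a1 did not differ beyond it. Tomm20l and Timm8a2, relatives of Tomm20 and Timm8a1, were near 0.

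**Figure D4:**
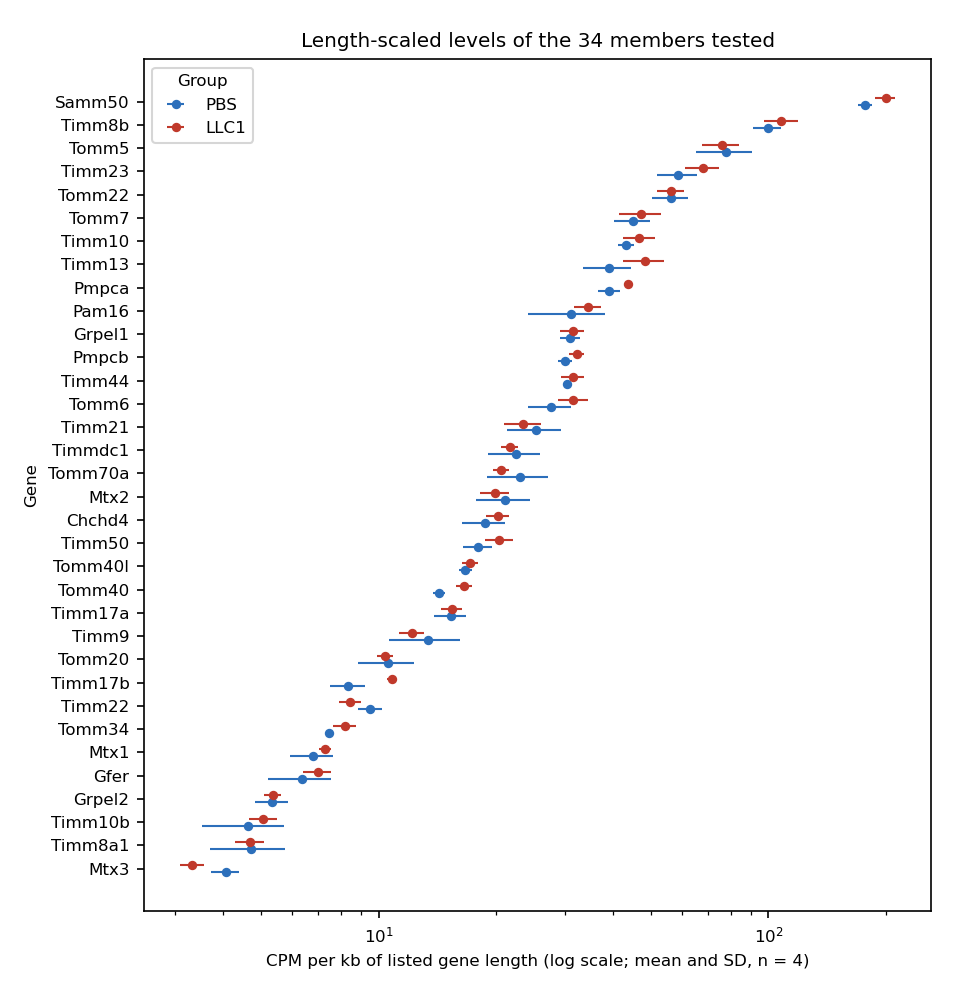
Level of each tested member in CPM per kb of listed gene length (horizontal log axis), as mean and SD over the 4 PBS (blue) and 4 LLC1 (red) mice. Samm50 stood highest and Mtx3 lowest in both groups.

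None of the 12 ratios between paralogs or partner subunits passed the exact permutation test after adjustment over the pairs. With 4 against 4 mice the smallest exact p is 0.0286, which passes this adjustment only if most of the 12 pairs reach it. The adjusted test could therefore hardly call a single pair. The log2 ratio of Mtx1 to Mtx3 was 0.39 higher in LLC1 mice, that of Samm50 to Mtx2 was 0.25 higher and that of Timm9 to Timm10 was 0.23 lower, each with an exact two-sided permutation p of 0.0571 and an adjusted p of 0.137. The unadjusted exact permutation p was 0.0286 for the first and second without PBS 2-5 (0.52 and 0.31) and for the third without PBS 2-1 (-0.30). That is the smallest value 3 against 4 mice allow, and leaving out any other mouse gave 0.0571 to 0.114 for these pairs. Without PBS 1-1 the differences of Samm50 to Mtx2 and of Timm9 to Timm10 were 0.16 and -0.12. The other 7 pairs differed by -0.12 to 0.19 (exact two-sided permutation p of 0.200 to 1.00). Among them, without PBS 1-1, Timm44 to Pam16 went from -0.12 to -0.27 (unadjusted exact two-sided permutation p = 0.0286, again the smallest possible). Leaving out any other mouse gave that pair an exact permutation p of 0.486 to 0.857. Without PBS 1-1, Timm10 to Timm10b went from -0.04 to -0.17, Timm13 to Timm8b from 0.19 to 0.09 and Timm8a1 to Timm8b from -0.11 to -0.02. Likewise Pmpca to Pmpcb went from 0.07 to 0.01, Chchd4 to Gfer from -0.03 to -0.08 and Grpel1 to Grpel2 from 0.02 to -0.02. The Timm9 to Timm10 ratio varied little among LLC1 mice, from -1.65 to -1.56, and ranged from -1.58 to -1.04 among PBS mice. The paralogs Grpel1 and Grpel2 had a log2 ratio of 2.36 ± 0.10 in LLC1 and 2.35 ± 0.14 in PBS mice (SD, n = 4).

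**Figure D5:**
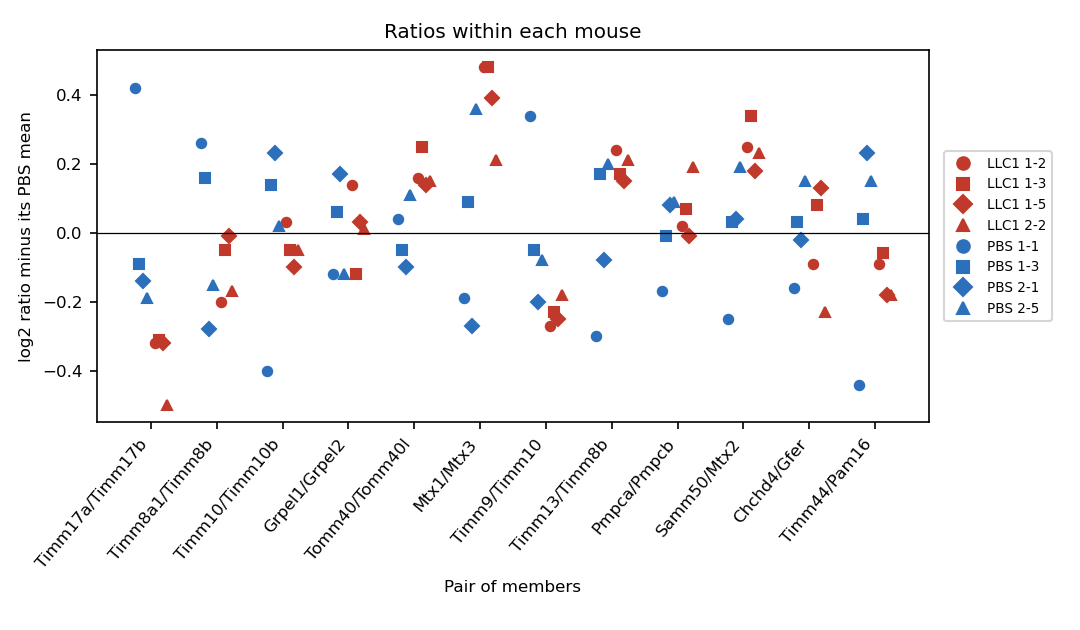
Log2 ratio of counts within each mouse, minus the PBS mean of that ratio (vertical axis), for 12 pairs of members, with PBS mice in blue and LLC1 mice in red. Timm17a/Timm17b (-0.36) and Tomm40/Tomm40l (0.17) are the pairs without overlap between the groups.

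The proteins that work with the import machinery were read from the same edgeR fit as 5 lists of 46 genes, of which 5 rose (10.9%, beside 4.12% of all tested genes) and 0 fell (beside 4.61%), with a median log2 fold change of 0.10. The 5 became 10 without PBS 1-1 (21.7%, beside 5.56% of all genes in that fit) and 1 without PBS 1-3. Among 8 tested genes of the matrix chaperone and motor list, where the symbol Dnajc19 stands for 2 gene identifiers, Romo1 and Trap1 rose (25.0%, beside 4.12% of all tested genes). This count was 4 of 8 without PBS 1-1 (beside 5.56% of all genes in that fit), 1 without any of the other 7 mice and 1 in 5 of 9 other settings. Romo1, a small inner membrane protein associated with the TIM23 channel, had 90.3, 79.5, 87.3 and 83.7 CPM in LLC1 mice and 68.6, 61.8, 53.5 and 61.9 CPM in PBS mice. It did not overlap between the groups and rose 1.39-fold (log2 0.47, SE 0.08, edgeR FDR 0.00529), a larger log2 fold change than the 0.37 of Timm17b. Trap1, the matrix Hsp90 chaperone, rose 1.14-fold (edgeR FDR 0.0498).

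Of 11 peptidases and insertases, 3 rose (27.3%, beside 4.12% of all tested genes). This count was 1 without any of the 4 LLC1 mice, 2 without PBS 1-1 or PBS 2-1, 0 without PBS 1-3 and 0 with total count scaling. Of all genes, 1.70% to 2.16% were called higher without an LLC1 mouse, 5.56% without PBS 1-1, 2.25% without PBS 2-1, 1.30% without PBS 1-3 and 1.40% with total count scaling. Clpp, the proteolytic core of a matrix protease, rose 1.27-fold (edgeR FDR 0.0126), Clpx, its unfoldase, rose 1.20-fold (edgeR FDR 0.0298), and Lonp1, another matrix protease, rose 1.16-fold (edgeR FDR 0.0435). None of 8 outer membrane substrates and SAM partners, 6 cytosolic chaperones or 13 MIA partners and substrates passed edgeR's test. Of all tested genes, 4.12% were higher and 4.61% lower in that test. At an unadjusted p under 0.05, 1 outer membrane gene (12.5%) and 2 MIA genes (15.4%) were higher, near the 12.4% of all tested genes. At that level 1 cytosolic chaperone (16.7%) was lower, near the 13.0% of all tested genes. Of these 13 MIA genes, 1 was called higher by DESeq2 (beside 5.62% of all genes in that fit). The count was also 1 with the length offset (beside 6.05%) and without PBS 2-5 (beside 4.99%). It was 4 without PBS 1-1 (30.8%, beside 5.56% of all genes in that fit). The cytosolic chaperones, which hand precursors to the TOM receptors, had a median log2 fold change of -0.11, or 0.02 without PBS 1-1.

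Other nuclear-encoded mitochondrial genes were read from the same edgeR fit. Of 37 complex I subunits, 7 rose (18.9%, beside 4.12% of all tested genes) and the median log2 fold change was 0.19. Of 77 mitochondrial ribosomal proteins, 5 rose (6.49%, near the same 4.12%) and the median was 0.04. Without PBS 1-1 these counts were 16 (43.2%) and 12 (15.6%), beside 5.56% of all genes in that fit. The study tabled complex I genes from these same mice, so that count is not independent evidence of its direction. The difference of the members from either list was not tested.

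Marker genes of cell types moved with the groups beside these values. The cardiomyocyte sum (7 markers, of which 1 rose and 0 fell) did not overlap between the groups and was 0.17 higher in LLC1 mice on the log2 scale, or 0.12 with total count scaling. Most of this sum was Myh6, the main cardiac myosin heavy chain (54300 CPM in LLC1 and 45900 CPM in PBS mice, edgeR FDR 0.0209). The other 6 markers did not pass the test, with log2 fold changes of -0.17 (Ryr2) to 0.22 (Tnnt2). Sums of 6 endothelial (728 to 840 CPM in LLC1 and 824 to 1080 CPM in PBS mice), 6 fibroblast (729 to 807 and 782 to 982 CPM), 5 macrophage (216 to 268 and 241 to 360 CPM) and 5 mural markers (763 to 820 and 880 to 1030 CPM) were lower, with 2, 3, 2 and 0 genes passing the test. The sum of 4 markers of dividing cells was 3.88 to 6.78 CPM in LLC1 mice and 17.5 to 51.9 CPM in PBS mice, and all 4 fell. The log2 ratios of the group means were 0.40, 1.57, 0.26, 0.23 and 0.15 for sums of 5 red cell, 3 neutrophil, 3 atrial, 4 adipose and 3 epithelial markers, with the brown fat marker Ucp1 at 0 in every mouse. The atrial sum was nearly all Nppa (197 CPM in LLC1 and 165 CPM in PBS mice) and the adipose sum nearly all Cidea (31.0 and 26.3 CPM), with mean levels of Sln, Adipoq and Plin1 of at most 0.123 CPM in either group. The neutrophil sum did not overlap between the groups (1.72 to 2.63 CPM in LLC1 and 0.413 to 1.29 CPM in PBS mice), and both of its tested genes, S100a8 and S100a9, rose, while none of the tested genes of the other 4 lists passed edgeR's test. The part of cell composition in the levels of Timm17b and Tomm40 was not tested.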

How the data were processed

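Ventricular RNA was sequenced as 150-base paired-end reads from TruSeq v2 libraries, which do not mark strand. The authors deposited raw gene counts for each mouse without normalization. The submitters' processing notes name CASAVA, STAR, featureCounts and the mm10 build. Their versions, the annotation and the handling of shared reads are not given in the sources used here. Groups came from the treatment label.

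Counts were tested with edgeR 4.0.16 in R 4.3.3 (filterByExpr, TMM, quasi-likelihood F-test, Benjamini-Hochberg over 16111 genes, FDR threshold 0.05). The standard error was the absolute log2 fold change divided by the square root of F. Ratios used counts plus 0.5 and exact permutation over the 70 arrangements of all 8 mice, with fewer arrangements when a mouse was left out. A level of 1 CPM corresponds to 12.5 to 19.7 counts, depending on the library. Alternatives were DESeq2 1.42.0, limma-voom (limma 3.58.1), other scalings and filters, a covariate for the leading digit of each mouse's code, length and GC offsets, and each mouse left out. Steps were tested on simulated data. Python 3.11.15, pandas 2.3.3 and matplotlib 3.10.9 were used. Exon overlaps and similar transcripts (at least 97% identity over 150 bases) came from GENCODE M21.

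The members and lists were chosen with earlier results of these data known. Values in every mouse were given for members with FDR under 0.05, the 3 highest and 3 lowest tested members per length, and pairs whose ratios did not overlap. Other members were named by role, and companion genes where FDR was under 0.05, at most 3 per list. Echocardiography, immunoblots and respiration of the study were not analysed here.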

Additional observations from a re-analysis of the deposited data

Results flagged for a closer look

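In 4 of 68 groups of 4 mice (34 members in each treatment), 1 mouse stood apart from the other 3 beyond Dixon's 95% critical value, and chance gives this in about 1 in 20 groups. Pmpca in LLC1 2-2 was at 192 CPM, above 185 to 186 CPM in the other LLC1 mice. Pmpcb in PBS 2-5 was at 145 CPM, below 157 to 159 CPM in the other PBS mice. Timm13 in LLC1 1-2 was at 69.9 CPM, above 54.9 to 55.7 CPM. Tomm6 in LLC1 1-2 was at 40.4 CPM, above 33.9 to 34.4 CPM.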

How the results depend on the processing

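The median log2 fold change of the 34 members stayed above 0 in every setting tried, from 0.03 (total count scaling) to 0.10 (genes with a count in any mouse), and from 0.03 to 0.11 with 1 mouse left out. The 2 members called higher became 0 with total count scaling, 1 (Timm17b) with genes with a count in any mouse, 10 counts in every mouse, limma-voom, the code number as covariate or the GC offset, and 3 with the length offset (Pmpca added). With 1 mouse left out they ranged from 0 (without LLC1 1-2, 1-5 or 2-2 or PBS 1-3) to 5 (without PBS 1-1), with 1 without LLC1 1-3 or PBS 2-1. The share of all genes called higher, 4.12% in the main fit, did not always move with these counts. It was 1.40% with total count scaling, 2.83% with genes with a count in any mouse and 4.09% with 10 counts in every mouse. It was 4.23% with limma-voom, 5.25% with the covariate, 4.29% with the GC offset, 6.05% with the length offset and 5.62% with DESeq2. With a mouse left out it was 1.70% to 2.16% without an LLC1 mouse and 1.30% without PBS 1-3. It was 2.25% without PBS 2-1, 4.99% without PBS 2-5 and 5.56% without PBS 1-1. The members called lower ranged from 0 to 1 (Mtx3, without PBS 2-5).

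The 5 companion genes called higher became 1 with total count scaling and 3 with genes with a count in any mouse. They ranged from 1 (without PBS 1-3) to 10 (without PBS 1-1), with 2 without any of the 4 LLC1 mice and 3 without PBS 2-1, beside the shares of all genes given above. The matrix chaperone list had 1 call, not 2, with total count scaling (beside 1.40% of all genes) and with genes with a count in any mouse (2.83%). It also had 1 with 10 counts in every mouse (4.09%), with the covariate (5.25%) and with the GC offset (4.29%), and 1 to 4 with a mouse left out. The peptidase list had 0 with total count scaling and 0 to 3 with a mouse left out. The MIA list had 1 with DESeq2 (beside 5.62% of all genes) and with the length offset (beside 6.05%), and 0 to 4 (without PBS 1-1) with a mouse left out. The outer membrane list had 1 with the GC offset (beside 4.29% of all genes). With the covariate, 1 companion gene, in the cytosolic chaperone list, was called lower (beside 5.18% of all genes). The cause was not tested.

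Fold changes near 0 changed sign. On the log2 scale total count scaling gave -0.04 for Timm17a, -0.01 for Tomm40l, -0.03 for Grpel1, -0.01 for Timm44 and -0.05 for Grpel2, the covariate -0.03 for Timm17a, -0.01 for Grpel1 and -0.03 for Grpel2, the GC offset 0.01 for Mtx2, 0.02 for Tomm5, 0.05 for Tomm20 and 0.02 for Timm21, and the length offset 0.03 for Tomm20 and -0.02 for Timm8b. The cardiomyocyte marker sum was 0.12 with total count scaling. With a mouse left out, Timm17a ranged from -0.03 to 0.08, Mtx2 from -0.16 to 0.02, Tomm5 from -0.12 to 0.06, Tomm7 from -0.02 to 0.14, Grpel1 from -0.02 to 0.05, Tomm20 from -0.09 to 0.09, Timm9 from -0.21 to 0.01, Timmdc1 from -0.12 to 0.05 and Grpel2 from -0.05 to 0.07.

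The differences in log2 ratio ranged, with a mouse left out, from -0.43 to -0.22 for Timm17a/Timm17b and from 0.14 to 0.21 for Tomm40/Tomm40l, whose unadjusted exact permutation p was 0.0571 without any 1 of the LLC1 mice. They ranged from -0.17 to 0.04 for Timm10/Timm10b, -0.02 to 0.07 for Grpel1/Grpel2, 0.30 to 0.52 for Mtx1/Mtx3, -0.30 to -0.12 for Timm9/Timm10, 0.16 to 0.31 for Samm50/Mtx2, -0.08 to 0.04 for Chchd4/Gfer, -0.27 to -0.05 for Timm44/Pam16, 0.09 to 0.26 for Timm13/Timm8b, -0.20 to -0.02 for Timm8a1/Timm8b and 0.01 to 0.10 for Pmpca/Pmpcb. A pseudocount of 1 changed no ratio's direction or side of the threshold. No paired analysis was possible because the groups share only 1 replicate code, carried by different animals. Total counts of 12480706 to 19747596 limit the precision for members of few counts, such as Timm8a1, whose 95% interval was 0.777-fold to 1.29-fold.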

Other observations

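Some members share exon bases with other genes. Gm21981 covers 76.0% of the exon bases of Tomm6 on the same strand, and its count was 105% to 107% of that of Tomm6 in every mouse. Nr1i3 shares 64.3% of the exon bases of Tomm40l on the other strand, and its count was 71.0% to 76.5% of that of Tomm40l. Inpp5e shares 20.4% of those of Pmpca, and its count was 41.0% to 44.4% of that of Pmpca in LLC1 mice and 45.1% to 48.7% in PBS mice. Dst, which is 99.8% identical to Gfer over 573 bases, had 7190% to 11300% of the count of Gfer. Inpp5e itself had a log2 fold change of 0.03 (edgeR FDR 0.770). Gm10491 shares 4.6% of the exon bases of Timm17b, with at most 20 counts in a mouse, and Gm20512 shares 5.7% of those of Tomm40, with at most 145 counts. The part of shared reads in these values was not tested. By gene length, the 17 shorter members (up to 2557 bases) had 1 call (5.88%) and a median log2 fold change of 0.12, and the 17 longer members 1 call (5.88%) and a median of 0.04, each share near the 4.12% of all tested genes.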
